A study of Homo sapiens with 12 samples.

Results

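A set of 10 genes that encode inflammatory mediators was followed in RNA-seq libraries of RPE1 cells. The set is a list of names with no threshold on values, drawn up when earlier results of these data were known: the interleukins IL1A, IL1B and IL6, the chemokines CXCL8, CXCL1, CXCL2, CXCL3 and CCL2, the colony-stimulating factor CSF2 and the prostaglandin synthase PTGS2. All 10 were found among the 57773 gene identifiers of the deposited table. RPE1 is an immortalised line of human retinal pigment epithelial cells. Cells were given siRNA for 24 h, either one that targets Anillin or a non-targeting one, then stained with the DNA dye Hoechst and sorted by DNA content. Anillin (ANLN) organises the contractile ring that divides the daughter cells, and without it cytokinesis can fail and the genome stays doubled. There were 4 groups of 3 libraries, called Anillin 4N, control 4N, Anillin 2N and control 2N. All groups went through the same transfection and staining, so no group was untransfected. Replicates are labelled biological, but no label names separate cultures, so p-values cover only the spread between these libraries. Control cells sorted at 4N are in G2 or mitosis, whereas Anillin 4N cells can also be tetraploid cells in G1.

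These genes belong to one circuit of innate immunity. Interleukin 1 alpha and beta bind the receptor IL1R1, whose signal runs through MYD88, the IRAK kinases, TRAF6 and the IKK complex to NF-kB. NF-kB enters the nucleus and, together with AP-1 and C/EBP factors, switches on the genes of interleukin 6, the CXC chemokines that attract neutrophils, CCL2 that attracts monocytes, and the enzyme COX-2 (PTGS2) that starts prostaglandin synthesis. Most of their messenger RNAs carry AU-rich elements in the 3′ untranslated region and are short-lived, since proteins such as tristetraprolin (ZFP36) direct them to decay. The same genes are prominent in the secretory phenotype of senescent cells and are made by retinal pigment epithelium in inflammation.

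The promoters are shown because several of the genes share an NF-kB motif. The following lines give the 150 bases before the RefSeq transcription start of 5 genes on GRCh38.p14, 5′ to 3′ on the strand of the gene, with matches to GGNNTTTCC in capitals.
IL6, chr7:22727050-22727199, plus strand: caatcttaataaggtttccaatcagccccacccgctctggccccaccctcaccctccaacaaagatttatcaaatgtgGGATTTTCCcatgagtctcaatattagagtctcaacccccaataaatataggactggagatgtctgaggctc
CXCL8, chr4:73740419-73740568, plus strand: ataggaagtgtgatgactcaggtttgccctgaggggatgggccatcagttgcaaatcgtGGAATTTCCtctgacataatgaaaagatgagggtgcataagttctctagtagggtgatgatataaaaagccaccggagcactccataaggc
CXCL1, chr4:73869243-73869392, plus strand: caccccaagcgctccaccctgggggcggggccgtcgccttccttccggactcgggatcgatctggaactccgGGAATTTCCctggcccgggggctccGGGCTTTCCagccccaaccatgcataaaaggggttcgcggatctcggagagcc
CXCL2, chr4:74099196-74099345, minus strand: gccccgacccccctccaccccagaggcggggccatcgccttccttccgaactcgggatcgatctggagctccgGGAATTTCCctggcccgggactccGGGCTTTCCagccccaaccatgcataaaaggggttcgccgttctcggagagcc
CXCL3, chr4:74038690-74038839, minus strand: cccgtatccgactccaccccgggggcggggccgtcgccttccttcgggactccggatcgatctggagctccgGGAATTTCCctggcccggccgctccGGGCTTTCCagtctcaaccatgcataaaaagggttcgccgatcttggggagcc
The motif GGNNTTTCC, the tail of the NF-kB site, was searched on both strands from 250 bases before to 50 bases after the start. It was chosen with the known sites of these genes in mind. It was found in these 5 of the 9 genes that have an entry in the RefSeq promoter table, against 6.26% of 35116 promoters. A looser NF-kB motif, GGG and CC around 5 free bases on both strands, was found in 7 of the 9, these 5 with CSF2 and PTGS2, against 58.7% of promoters. It overlaps the shorter motif in IL6, CXCL1, CXCL2 and CXCL3. CCL2 was not matched in that table. The match of the shorter motif began 72 bases before the start in IL6 and 91 bases before it in CXCL8. CXCL1 and CXCL3 each had matches 78 and 53 bases before the start, and CXCL2 had them at 77 and 53. The AP-1 motif TGANTCA, on both strands, was found in IL1A and CXCL8, against 7.71% of promoters. The TATA motif TATAAA, on the strand of the gene, was found 31 bases before the start in CXCL8, 32 bases before it in PTGS2 and 239 bases before it in IL1A, against 7.33% of promoters at any position in the window. The printed stretches of CXCL1, CXCL2 and CXCL3 are near copies of each other, with 88.8% identical positions between CXCL1 and CXCL2, 88.1% between CXCL1 and CXCL3 and 86.3% between CXCL2 and CXCL3, whereas no other pair of the 9 promoters exceeded 52.6%.

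The second shared feature is the AU-rich 3′ untranslated region. The following 30-base windows hold the densest run of the pentamer ATTTA, in capitals, in 5 of the genes, written as DNA on the strand of the gene on GRCh38. They are shown because they span the range, from the overlapping repeats of CSF2 and CXCL2 to the lone pentamer of CCL2.
CSF2, chr5:132076072-132076101, plus strand: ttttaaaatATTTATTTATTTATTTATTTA
CXCL2, chr4:74097590-74097619, minus strand: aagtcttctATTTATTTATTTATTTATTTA
CXCL8, chr4:73743108-73743137, plus strand: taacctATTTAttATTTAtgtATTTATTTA
IL1B, chr2:112830003-112830032, minus strand: tgagcaaccgcttccctATTTATTTATTTA
CCL2, chr17:34256938-34256967, plus strand: tatgccttaagtaatgttaattcttATTTA
All 10 genes had more ATTTA per kilobase of 3′ untranslated region than the median of 18446 protein-coding genes, which was 1.48. CSF2 had 25.2 per kilobase, IL6 14.0, CXCL2 13.9, CXCL3 10.4, IL1B 9.84, PTGS2 8.59, CXCL8 7.19 and CXCL1 7.08, each above the 95th percentile of 6.57. IL1A had 4.34 and CCL2 2.66, which for CCL2 rests on 1 pentamer in 376 bases. The longer form TATTTAT was found in 9 of the 10 genes, all but CCL2, against 29.6% of the genes. These counts describe sequence and were not read against any change in level.

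**Figure D1:**
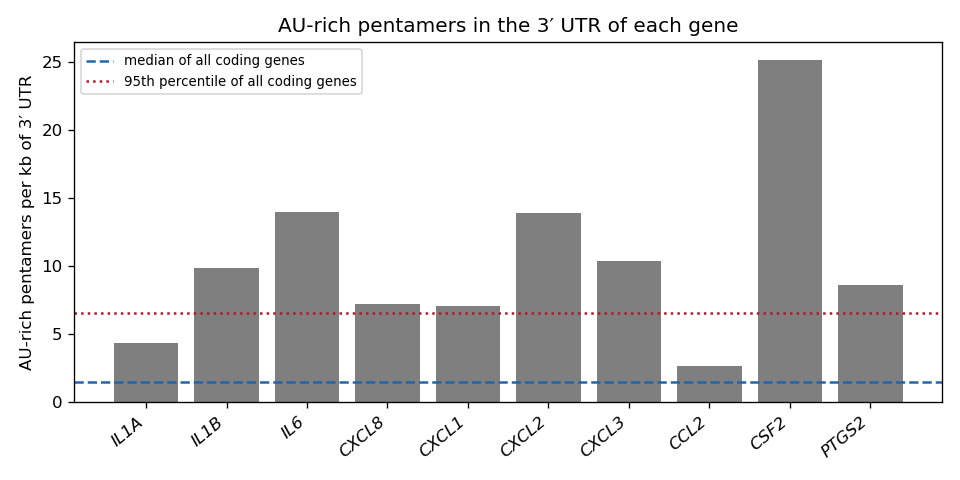
Number of AU-rich pentamers per kilobase of 3′ untranslated region in each of the 10 genes (bars), with the median of all protein-coding genes at 1.48 (dashed line) and their 95th percentile at 6.57 (dotted line). CSF2 stands highest at 25.2, and IL1A and CCL2 lie between the lines.

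The libraries held 17412742 to 61760450 reads in genes, and the deposited values are RPKM over the genomic span of a gene, introns included, so genes with long introns read low. The targeted gene ANLN was at 0.0989, 0.0855 and 0.0700 RPKM in Anillin 4N, against 8.42, 7.45 and 7.98 in control 4N, and at 0.0850, 0.0582 and 0.0395 RPKM in Anillin 2N, against 1.88, 1.25 and 1.66 in control 2N. The proliferation marker MKI67 averaged 4.04 ± 0.292 RPKM in Anillin 4N and 27.8 ± 2.39 in control 4N (SD, n = 3 each). It averaged 1.15 ± 0.079 RPKM in Anillin 2N and 5.32 ± 0.951 in control 2N. The sorted fractions thus also differed in the level of this marker, which does not give the share of cycling cells. The part of this difference in the results was not tested. Of 13 markers of retinal pigment epithelium 3 passed the filter on low values, the keratins KRT18 and KRT8 and the transcription factor OTX2. Averaged over the 12 libraries, 8 of the 13 lay below 0.1 RPKM. The transport protein gene TTR was listed at 0, and the markers summed to 99.8 to 109.3 RPKM in Anillin 4N, 121.2 to 124.0 in control 4N, 112.8 to 125.2 in Anillin 2N and 134.6 to 152.2 in control 2N, most of it KRT18. Of 16 blood cell markers, included because blood cells are the main source of these cytokines in tissue, only the lysosomal gene CD68 passed. CD68 averaged 13.9 ± 0.930 RPKM in Anillin 4N and 16.9 ± 0.356 in control 4N (log2 change -0.27, adjusted p = 0.000998), and 13.1 ± 0.432 in Anillin 2N and 16.7 ± 0.085 in control 2N (-0.34, adjusted p = 0.000851). It thus fell with Anillin siRNA at both DNA contents, though under quantile scaling the 4N difference missed the threshold (adjusted p = 0.0960). The 16 markers summed to 13.4 to 15.3 RPKM in Anillin 4N, 17.2 to 17.9 in control 4N, 13.3 to 14.0 in Anillin 2N and 17.4 to 17.5 in control 2N, and the part of this in the changes of the cytokines was not tested. CD3E, HBB, S100A8, S100A9 and TYROBP were listed at 0 in every library.

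The first question was how high the RNA level of each gene was. Levels between genes were compared per kilobase of merged exons, as RPKM over exon length, averaged over the 12 libraries. Whether the counted reads were limited to exons is not given in the sources used here, so intronic reads could raise these values. CCL2 stood highest at 38.0, before IL6 at 23.0, PTGS2 at 11.0 and IL1B at 10.3. CXCL3 at 2.28, CXCL8 at 2.22, CSF2 at 2.16 and CXCL2 at 1.77 formed a lower tier, and IL1A at 0.480 and CXCL1 at 0.283 were lowest. Within every group the 3 libraries of IL6 lay above those of PTGS2, those of IL1B above those of CXCL3, and those of CXCL2 above those of IL1A. CXCL3 and CXCL8, CXCL8 and CSF2, and CSF2 and CXCL2 overlapped in all 4 groups. PTGS2 and IL1B overlapped in control 4N and control 2N, IL1A and CXCL1 in the same groups, and CCL2 and IL6 in control 2N. On the deposited scale the order was CCL2, IL6, PTGS2, IL1B, CXCL8, CXCL3, CXCL2, CSF2, CXCL1 and IL1A. CXCL1, CXCL2 and CXCL3 are close paralogs: 60 of the 1048 exonic 50-base words of CXCL1 also occur in CXCL2, and 54 of the 1169 of CXCL2 occur in CXCL3, so reads from these stretches could be assigned to either gene.

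The values of each gene in all libraries are given first, from ligands to enzyme, and the tests follow by comparison. IL1A (ENSG00000115008, chr2:112773915-112784590 on GRCh38, minus strand) encodes interleukin 1 alpha, which is active as an unprocessed precursor and acts as an alarm signal from damaged or senescent cells. It was at 0.112, 0.114 and 0.126 RPKM in Anillin 4N, against 0.0196, 0.0441 and 0.0451 in control 4N. It was at 0.136, 0.122 and 0.175 RPKM in Anillin 2N, against 0.0838, 0.0830 and 0.0852 in control 2N. Every Anillin library lay above every control library, and control 4N was lowest. The values rest on few reads, 22 to 53 in the Anillin 4N libraries and 5 to 21 in control 4N.

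IL1B (ENSG00000125538, chr2:112829751-112836903, minus strand), 45160 bases from IL1A, encodes interleukin 1 beta, which caspase 1 cuts to its active form. It was at 1.91, 2.23 and 2.44 RPKM in Anillin 4N, against 2.32, 2.45 and 2.21 in control 4N. It was at 2.88, 2.50 and 2.71 RPKM in Anillin 2N, against 4.58, 4.44 and 4.96 in control 2N. Control 2N stood apart from the other groups, while Anillin 4N and control 4N overlapped. Its neighbour IL1A had another order of groups, with control 4N lowest and both Anillin groups highest.

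IL6 (ENSG00000136244, chr7:22725884-22732002, plus strand) encodes interleukin 6, which signals through IL6R and IL6ST to STAT3. It was at 4.05, 3.88 and 4.50 RPKM in Anillin 4N, against 6.07, 6.23 and 5.69 in control 4N. It was at 5.79, 5.03 and 5.24 RPKM in Anillin 2N, against 9.88, 9.23 and 11.9 in control 2N. The groups did not overlap within either DNA content. IL6 overlaps STEAP1B and the antisense gene IL6-AS1 on the other strand, and the use of strand in counting is not given in the sources used here. STEAP1B averaged 6.65 ± 0.216 RPKM in Anillin 4N and 6.05 ± 0.119 in control 4N. It averaged 6.81 ± 0.484 RPKM in Anillin 2N and 5.98 ± 0.133 in control 2N. STEAP1B rose in both comparisons with control (log2 changes 0.13 and 0.17, adjusted p = 0.0496 and 0.0231). Only 1730 bases of it overlap IL6, so these values do not describe the overlap. IL6-AS1 was at -0.03 and 0.31 on recovered reads with limma-voom and was not called (adjusted p = 0.929 and 0.338). The part of either gene in the values of IL6 was not tested.

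The CXC chemokines lie in a cluster on chromosome 4. CXCL8 (ENSG00000169429, chr4:73740506-73743716, plus strand), the main neutrophil attractant in humans, was at 0.561, 0.602 and 0.959 RPKM in Anillin 4N, against 1.795, 0.992 and 1.21 in control 4N. It was at 0.903, 0.945 and 2.02 RPKM in Anillin 2N, against 3.13, 1.77 and 1.75 in control 2N. Single libraries spread widely: the third Anillin 2N library lay above 2 of the 3 control 2N libraries. CXCL1 (ENSG00000163739, chr4:73869393-73871242, plus strand), the founding GRO chemokine, was at 0.118, 0.119 and 0.138 RPKM in Anillin 4N, against 0.248, 0.133 and 0.136 in control 4N, and at 0.193, 0.119 and 0.216 RPKM in Anillin 2N, against 0.283, 0.115 and 0.193 in control 2N. The groups of CXCL1 overlapped in each comparison, and 4 to 24 reads a library stood behind the values.

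CXCL2 (ENSG00000081041, chr4:74097035-74099293, minus strand), another GRO chemokine, was at 0.507, 0.587 and 0.541 RPKM in Anillin 4N, against 0.888, 0.785 and 0.772 in control 4N. It was at 0.698, 0.629 and 0.766 RPKM in Anillin 2N, against 1.73, 1.24 and 2.31 in control 2N. CXCL3 (ENSG00000163734, chr4:74036589-74038807, minus strand), a close paralog of both, was at 0.688, 0.672 and 0.792 RPKM in Anillin 4N, against 0.941, 1.10 and 1.02 in control 4N. It was at 0.881, 1.06 and 0.980 RPKM in Anillin 2N, against 1.56, 1.66 and 1.87 in control 2N. For both genes the Anillin libraries lay below the control libraries of the same DNA content without overlap.

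CCL2 (ENSG00000108691, chr17:34255218-34257203, plus strand), the monocyte attractant also called MCP-1, was at 16.2, 15.9 and 19.2 RPKM in Anillin 4N, against 15.2, 19.0 and 16.0 in control 4N. It was at 26.7, 27.1 and 28.8 RPKM in Anillin 2N, against 30.03, 29.4 and 23.6 in control 2N. Its libraries split by DNA content, all 4N values lying below all 2N values, and siRNA groups overlapped within each. CSF2 (ENSG00000164400, chr5:132073790-132076170, plus strand) encodes GM-CSF, a growth factor of granulocytes and macrophages. It was at 0.298, 0.279 and 0.728 RPKM in Anillin 4N, against 0.791, 0.538 and 0.569 in control 4N, and at 0.292, 0.443 and 0.710 RPKM in Anillin 2N, against 1.59, 1.09 and 1.26 in control 2N. Only control 2N lay apart from the rest, and 12 to 184 reads a library stood behind CSF2.

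PTGS2 (ENSG00000073756, chr1:186671791-186680427, minus strand) encodes the inducible cyclooxygenase, which turns arachidonic acid into the precursor of prostaglandins. It was at 5.54, 4.77 and 5.23 RPKM in Anillin 4N, against 3.61, 4.28 and 3.74 in control 4N. It was at 6.13, 5.97 and 7.01 RPKM in Anillin 2N, against 6.74, 7.95 and 7.75 in control 2N. PTGS2 was the only gene of the 10 besides IL1A whose Anillin 4N libraries all lay above control 4N.

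**Figure D2:**
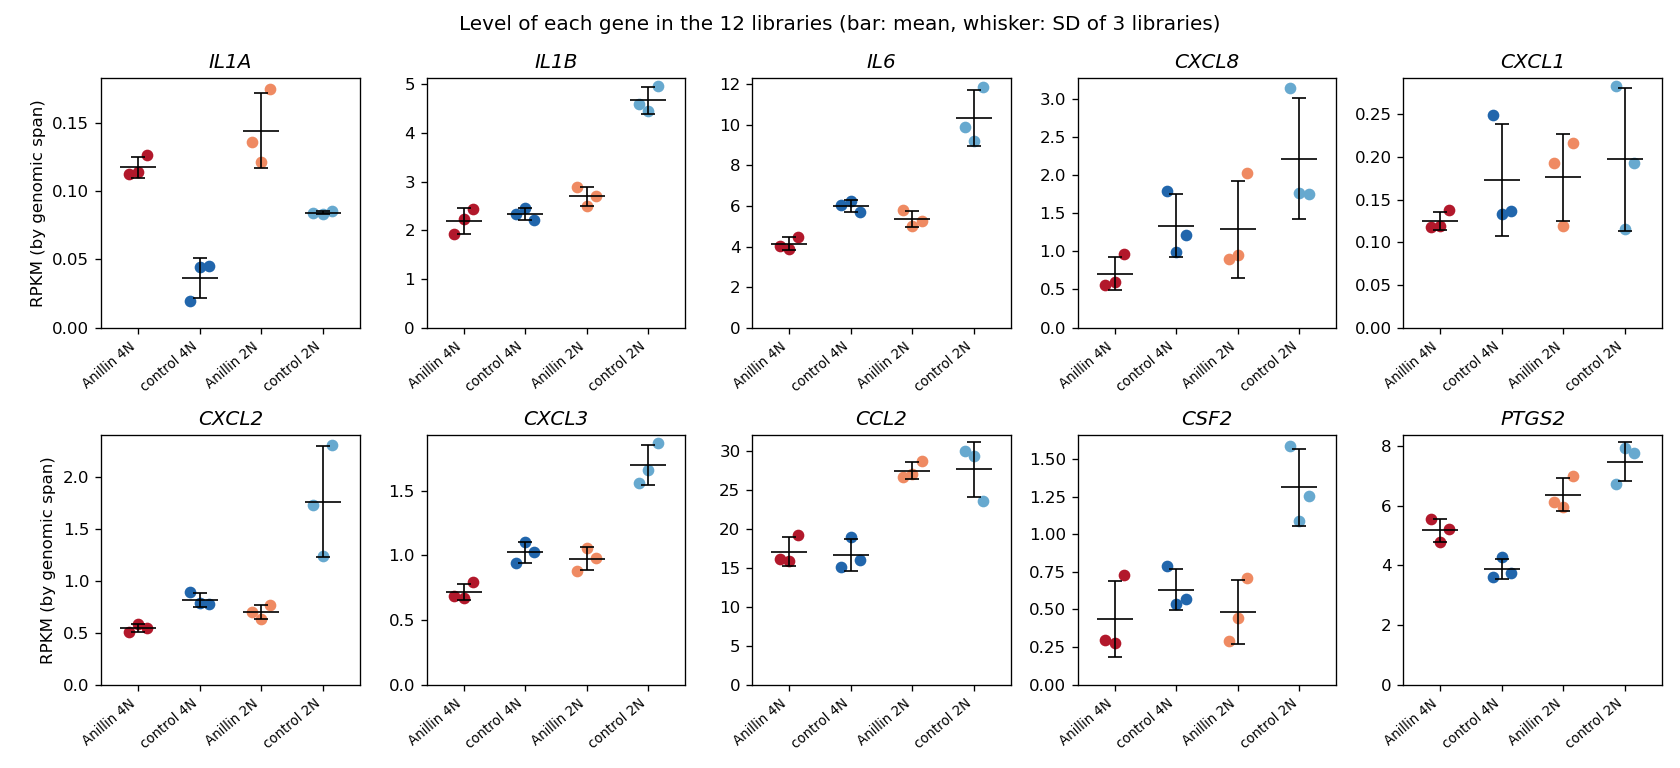
RPKM (vertical axis, from 0) of the 10 genes in the 12 libraries, by group; points are single libraries, the horizontal bar is the mean and the whisker the SD of 3 libraries. Control 2N is highest for IL1B, IL6, CXCL2, CXCL3 and CSF2, CCL2 splits by DNA content, and IL1A is lowest in control 4N.

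Differences between groups were tested on log2(RPKM + 0.5) with limma-trend over the 12892 genes with at least 0.5 RPKM in at least 3 libraries, and a gene is called where the Benjamini-Hochberg adjusted p over all of these is at most 0.05. The scale understates the change of genes near or below 0.5 RPKM. RPKM is a share of a library, so fewer cells of a type and less RNA per cell cannot be told apart. Of the 10 genes 8 passed the filter; IL1A and CXCL1 reached 0.5 RPKM in no library and were tested only on recovered reads with limma-voom, among the 22404 genes that had 10 reads or more in 3 libraries. CSF2 reached 0.5 RPKM in 8 libraries, 6 of them controls, so it passed mainly through the groups where it is high.

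Among 4N cells, Anillin siRNA was set against control to ask how cells sorted at 4N differ between the Anillin and the control cultures. IL6 and CXCL3 fell and PTGS2 rose. IL6 averaged 4.14 ± 0.318 RPKM in Anillin 4N and 5.996 ± 0.281 in control 4N (SD, n = 3 each), a log2 change of -0.49 ± 0.09 (SE, adjusted p = 0.00132). CXCL3 averaged 0.717 ± 0.065 RPKM in Anillin 4N and 1.02 ± 0.080 in control 4N (log2 change -0.32 ± 0.07, adjusted p = 0.00256). PTGS2 averaged 5.18 ± 0.388 RPKM in Anillin 4N and 3.88 ± 0.351 in control 4N (log2 change 0.38 ± 0.09, adjusted p = 0.00458). Of the 8 genes tested, 1 was called higher and 2 lower, against 20% and 31.5% of all genes tested, so these shares are near the background. The libraries of IL6, CXCL8, CXCL2 and CXCL3 did not overlap and were lower in Anillin 4N, against 36.3% of all genes tested. Those of PTGS2 were higher without overlap, against 24.1%. Those of IL1A were also higher without overlap, but IL1A is below the filter and these shares do not cover genes at its level. The median log2 change of the 8 genes was -0.31, against -0.05 over all genes tested.

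CXCL8 (-0.59 ± 0.27, adjusted p = 0.0975) and CXCL2 (-0.33 ± 0.14, adjusted p = 0.0688) did not pass between Anillin 4N and control 4N. CSF2 was at -0.30 ± 0.20 (adjusted p = 0.246), with the third Anillin 4N library at 0.728 RPKM against 0.298 and 0.279 in the others; without that library CSF2 was at -0.52 and passed (adjusted p = 0.0406). IL1B was at -0.07, with a 95% confidence interval from -0.24 to 0.09, and CCL2 at 0.03, with an interval from -0.22 to 0.29. On recovered reads IL1A rose by 1.67 ± 0.28 on the log2 scale (adjusted p = 6.25e-05), the largest change of the 10 genes in this comparison, with a mean of 0.118 ± 0.0077 RPKM in Anillin 4N and 0.0363 ± 0.0145 in control 4N. It remained called when any 1 library was left out (log2 change 1.41 to 1.84). CXCL1 was at -0.24, with an interval from -1.11 to 0.63. On reads 2 of the 10 genes were called higher and 2 lower, against 20.8% and 23.6% of all genes tested.

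Between Anillin 2N and control 2N, IL1B, IL6, CXCL2, CXCL3 and CSF2 fell, and none of the 8 tested genes rose, against 17.1% of all genes tested called lower and 11.4% called higher. IL6 averaged 5.35 ± 0.389 RPKM in Anillin 2N and 10.3 ± 1.39 in control 2N (log2 change -0.88 ± 0.09, adjusted p = 0.000156). IL1B averaged 2.70 ± 0.192 RPKM in Anillin 2N and 4.66 ± 0.270 in control 2N (-0.69 ± 0.07, adjusted p = 0.000211). CXCL3 averaged 0.973 ± 0.090 RPKM in Anillin 2N and 1.70 ± 0.155 in control 2N (-0.58 ± 0.07, adjusted p = 0.0003). CXCL2 averaged 0.698 ± 0.069 RPKM in Anillin 2N and 1.76 ± 0.535 in control 2N (-0.89 ± 0.14, adjusted p = 0.00127). CSF2 averaged 0.481 ± 0.212 RPKM in Anillin 2N and 1.31 ± 0.253 in control 2N (-0.90 ± 0.20, adjusted p = 0.00954). The libraries of these 5 genes were lower without overlap, against 23.9% of all genes tested, and none of the 8 was higher without overlap, against 17.4%. Those of IL1A, below the filter and not covered by these shares, were higher without overlap. The median log2 change of the 8 genes was -0.66, against -0.02 over all genes.

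CXCL8 was at -0.62 ± 0.27 between Anillin 2N and control 2N and did not pass (adjusted p = 0.125). The call turned on the third Anillin 2N library, at 2.02 RPKM: without it CXCL8 was at -0.89 and passed (adjusted p = 0.0317). PTGS2 was at -0.22 ± 0.09 and did not pass (adjusted p = 0.0925), with 6.37 ± 0.562 RPKM in Anillin 2N and 7.48 ± 0.648 in control 2N. CCL2 was at -0.000645, with a 95% confidence interval from -0.25 to 0.25. On recovered reads, where low values are not damped, CSF2 fell by 1.66, CXCL2 by 1.39, CXCL8 by 0.95 and PTGS2 by 0.24 (adjusted p = 7.89e-05, 2.07e-05, 0.00737 and 0.0209). The call of CXCL8 on reads was lost without the first or the second Anillin 2N library, and that of PTGS2 without either of these or the third control 2N library (adjusted p up to 0.0757 and 0.118). IL1A again went the other way, rising by 0.71 ± 0.19 (adjusted p = 0.00917), with 0.144 ± 0.0275 RPKM in Anillin 2N and 0.0840 ± 0.0011 in control 2N. On reads 7 of the 10 genes were called lower and 1 higher, against 16.2% and 12.4% of all genes tested.

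**Figure D3:**
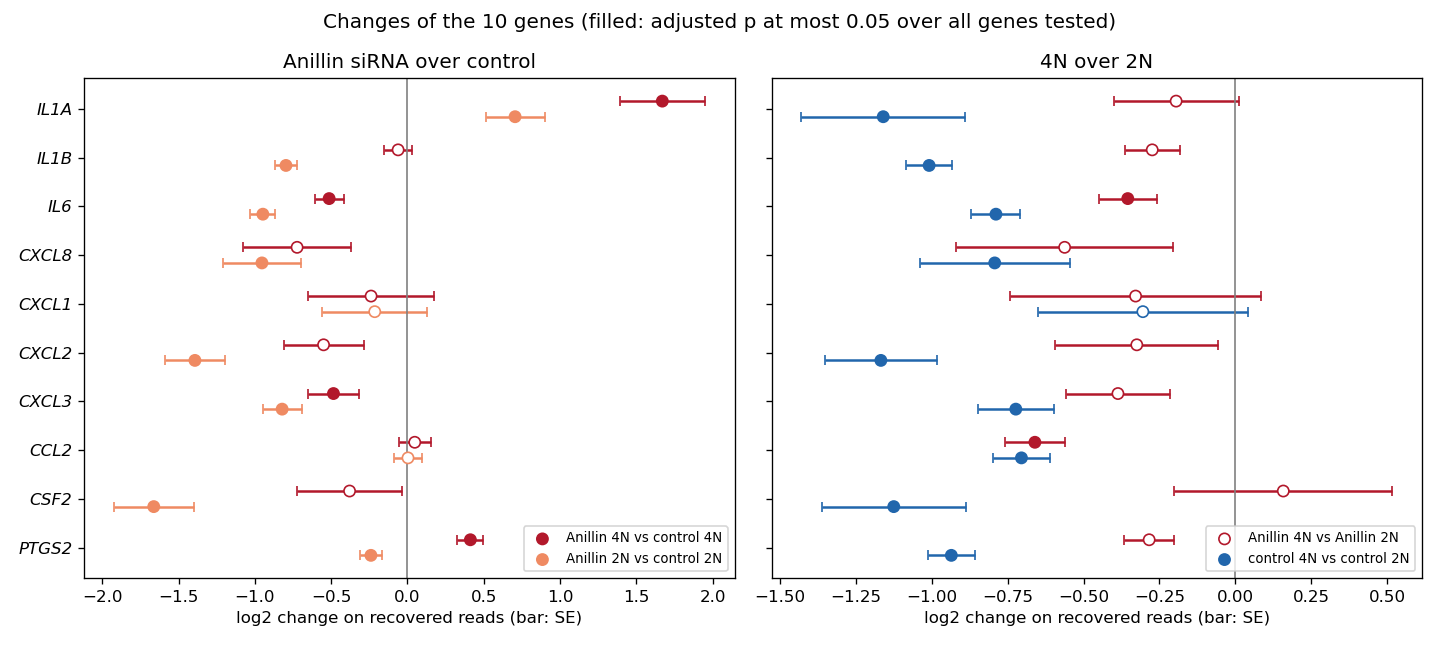
Log2 change on recovered reads (horizontal axis, bars are SE) of each gene, for Anillin siRNA over control (left) and for 4N over 2N (right); filled points have an adjusted p of at most 0.05 over all genes tested. IL1A rises after Anillin siRNA at both DNA contents, the other called genes except PTGS2 in 4N cells lie below 0, and most points of control 4N over control 2N lie further below 0 than those of Anillin 4N over Anillin 2N.

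Within the Anillin cultures CCL2 was the 1 gene of the 8 called between Anillin 4N and Anillin 2N, at 17.1 ± 1.87 RPKM in Anillin 4N, against 27.5 ± 1.11 RPKM for Anillin 2N (log2 change -0.68 ± 0.11, adjusted p = 0.0103). That is 1 of 8 called lower, against 0.97% of all genes tested, and none called higher, against 2.61%. CXCL3 (-0.27 ± 0.07, adjusted p = 0.0571), IL6 (-0.33 ± 0.09, adjusted p = 0.083), IL1B (-0.25 ± 0.07, adjusted p = 0.117) and PTGS2 (-0.27 ± 0.09, adjusted p = 0.138) did not pass, although their Anillin 4N libraries all lay below Anillin 2N. Libraries were lower in Anillin 4N without overlap for 6 genes, these 4 with CCL2 and CXCL2, against 9.22% of all genes. On reads IL6 fell as well (-0.35 ± 0.10, adjusted p = 0.0433), making 2 of 10 lower and none higher, against 1.47% and 2.57% of all genes tested, but this call was lost in most fits without 1 library, with an adjusted p of up to 0.183. IL1A was at -0.20 on reads, with a 95% confidence interval from -0.63 to 0.24.

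Between control 4N and control 2N, IL1B, IL6, CXCL2, CXCL3, CCL2, CSF2 and PTGS2 fell, 7 of the 8 genes tested, against 13.2% of all genes tested called lower, and none rose, against 23.9%. IL1B averaged 2.33 ± 0.120 RPKM in control 4N and 4.66 ± 0.270 in control 2N (log2 change -0.87 ± 0.07, adjusted p = 2.11e-05). PTGS2 averaged 3.88 ± 0.351 RPKM in control 4N and 7.48 ± 0.648 in control 2N (-0.87 ± 0.09, adjusted p = 5.75e-05). IL6 averaged 5.996 ± 0.281 RPKM in control 4N and 10.3 ± 1.39 in control 2N (-0.73 ± 0.09, adjusted p = 0.000222). CCL2 averaged 16.7 ± 2.03 RPKM in control 4N and 27.7 ± 3.54 in control 2N (-0.71 ± 0.11, adjusted p = 0.00105), close to its change in the Anillin cultures. CXCL2 was at -0.75 ± 0.14 (adjusted p = 0.00222) and CXCL3 at -0.53 ± 0.07 (adjusted p = 0.000261).

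CSF2 was at -0.67 ± 0.20 between control 4N and control 2N (adjusted p = 0.0269), a call lost without the second or the third control 4N library, without the first or the third control 2N library, and without a filter on low values (adjusted p up to 0.0834). On reads CSF2 was at -1.13 and remained called when any 1 library was left out. CXCL8 was at -0.55 ± 0.27 and did not pass (adjusted p = 0.145), while on reads it fell by 0.79 (adjusted p = 0.0172), a call lost without the second or the third control 4N or the first control 2N library. IL1A fell on reads by 1.16 ± 0.27 (adjusted p = 0.00227). The median of the 8 genes was -0.72, against 0.05 over all genes. The libraries of 7 of them were lower without overlap, against 18.7% of all genes tested. Those of IL1A, below the filter and not covered by this share, were lower without overlap as well. No gene of the set was higher without overlap, against 31.1%. On reads 9 of the 10 genes were called lower, all but CXCL1, against 17.3%, and none higher, against 19%.

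Whether the difference between 4N and 2N cells itself differed between the cultures was tested as an interaction, the 4N minus 2N change in the Anillin cultures less that in the control cultures. IL1B (0.62 ± 0.11, adjusted p = 0.00408) and PTGS2 (0.59 ± 0.12, adjusted p = 0.0107) passed, 2 of 8 called higher against 4.93% of all genes tested, and none was called lower, against 10.7%. Both were lower in 4N than in 2N cells, by 0.25 and 0.27 on the log2 scale in the Anillin cultures, which did not pass, and by 0.87 and 0.87 in the control cultures. Read the other way, the change with Anillin siRNA was -0.07 in 4N and -0.69 in 2N cells for IL1B, and 0.38 in 4N and -0.22 in 2N cells for PTGS2. CXCL2 (0.56 ± 0.19, adjusted p = 0.0815), IL6 (0.40 ± 0.13, adjusted p = 0.0641), CSF2 (0.59 ± 0.29, adjusted p = 0.204) and CXCL3 (0.25 ± 0.09, adjusted p = 0.101) lay on the same side and did not pass. CCL2 was at 0.03, with a 95% confidence interval from -0.32 to 0.39, and CXCL8 at 0.02, with an interval from -0.84 to 0.89. On reads IL6 passed as well (0.43 ± 0.13, adjusted p = 0.0254), though not without the third Anillin 4N, the third control 4N or the second Anillin 2N library (adjusted p up to 0.123), and IL1A was at 0.96 (adjusted p = 0.0648). That made 3 of 10 higher and none lower on reads, against 6.36% and 8.19% of all genes tested. The comparisons share groups of libraries, the control 2N libraries among them, so they are not independent of each other.

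The other genes of the pathway were taken as lists, and each count is out of the list members that passed the filter. Over all genes tested 20% rose and 31.5% fell between Anillin 4N and control 4N, 11.4% and 17.1% between Anillin 2N and control 2N, and 23.9% and 13.2% between control 4N and control 2N, with median log2 changes of -0.05, -0.02 and 0.05. Of 8 other cytokines and chemokines 4 rose and 2 fell between Anillin 4N and control 4N, against 20% and 31.5% of all genes, with a median of 0.16. TSLP, an epithelial alarm cytokine, rose by 0.79 ± 0.08, to 3.29 ± 0.153 RPKM in Anillin 4N against 1.70 ± 0.172 in control 4N. The macrophage growth factor CSF1 was at 0.35 ± 0.06 and IL12A, a subunit of interleukin 12, at 0.31 ± 0.06, while IL11, of the interleukin 6 family, fell by 0.52 ± 0.13 and MIF by 0.30 ± 0.08. None of the 8 passed between Anillin 2N and control 2N on this scale (median -0.07). On reads 3 rose and 2 fell of 16, against 12.4% and 16.2% of all genes tested. In control 4N against control 2N 4 of the 8 fell and none rose, against 13.2% and 23.9% of all genes, among them TSLP (-0.68 ± 0.08), LIF (-0.54 ± 0.11) and IL12A (-0.39 ± 0.06), and TSLP passed the interaction (0.82 ± 0.11, adjusted p = 0.00137), as did CSF1 (0.46 ± 0.08, adjusted p = 0.00514).

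The receptors that would read these signals were mostly below the filter, which 7 of 23 passed. IL1R1, the interleukin 1 receptor, was at 0.164 ± 0.0093 RPKM in Anillin 4N and 0.0975 ± 0.0140 in control 4N, and at 0.207 ± 0.0190 in Anillin 2N and 0.157 ± 0.0183 in control 2N, below the filter. On reads it rose by 0.73 in 4N cells (adjusted p = 2.23e-05) and by 0.43 in 2N cells (adjusted p = 0.00125), in the same direction as IL1A. Of the 7 receptors past the filter, 2 rose and none fell between Anillin 4N and control 4N, against 20% and 31.5% of all genes, with a median of 0.12: the chemokine scavenger ACKR3 (0.59 ± 0.08) and TLR3, a sensor of double-stranded RNA (0.52 ± 0.07). On reads 8 of 15 rose and none fell, against 20.8% and 23.6%. Between Anillin 2N and control 2N none of the 7 passed, with a median of 0.06, and on reads 3 of 15 rose and none fell, against 12.4% and 16.2%. Of the same 7, 3 fell and none rose between control 4N and control 2N, against 13.2% and 23.9% of all genes. ACKR3 (-0.55 ± 0.08) and TLR3 (-0.34 ± 0.07) were among those that fell. ACKR3 averaged 5.29 RPKM in Anillin 4N, 3.37 in control 4N and 5.15 in control 2N. On reads 8 of 15 fell there and none rose, against 17.3% and 19%.

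Signalling genes between the receptor and NF-kB moved in both directions. Of 16, 4 rose and 4 fell between Anillin 4N and control 4N, near the 20% and 31.5% of all genes, and their median was -0.06. The largest rise was that of STING1 (0.40 ± 0.04), the adaptor of cytosolic DNA sensing, and the largest fall that of the kinase IRAK1 (-0.63 ± 0.11), which had 11.7 RPKM in Anillin 4N and 18.5 in control 4N. Between Anillin 2N and control 2N 1 rose, STING1 again (0.18 ± 0.04), and 3 fell, against 11.4% and 17.1% of all genes: MAP3K14 (-0.20 ± 0.05) with TBK1 and MAP3K7, the calls of the last pair being lost in several fits without 1 library. Of the 3 NF-kB subunits past the filter 1 fell and none rose between Anillin 4N and control 4N, against 31.5% and 20% of all genes, and none passed between Anillin 2N and control 2N. RELA, the main activating subunit, was at -0.13 ± 0.05 between Anillin 4N and control 4N (adjusted p = 0.0498), a call lost in 12 of 20 other settings. Between control 4N and control 2N RELA rose (0.15 ± 0.05, adjusted p = 0.0333) and REL fell (-0.16 ± 0.05, adjusted p = 0.0328), calls lost in 8 and 6 of 20 other settings. The NF-kB inhibitor NFKBIA, itself a rapid NF-kB target, was at 18.1 ± 2.90 RPKM in Anillin 4N and 17.1 ± 1.14 in control 4N, and at 17.1 ± 2.86 in Anillin 2N and 18.0 ± 2.48 in control 2N (log2 changes 0.07 and -0.07, adjusted p = 0.698 and 0.753). TNFAIP3, a deubiquitinase that damps the pathway, was at 0.20 and 0.12 and did not pass (adjusted p = 0.196 and 0.478), though on reads it rose in 4N cells by 0.46 (adjusted p = 0.0405). Among the 10 inhibitors and feedback genes, BCL3 rose (0.34 ± 0.07) and NFKBIE fell (-0.26 ± 0.07) in 4N cells, 1 of 10 each way against 20% and 31.5% of all genes. None rose and 3 fell in 2N cells, against 11.4% and 17.1%, with a median of -0.11: ZC3H12A, an RNase that cuts the IL6 messenger (-0.26 ± 0.06), with TNIP1 and CYLD, whose calls were lost in some settings (adjusted p up to 0.0569 and 0.0791).

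Of 9 other NF-kB targets between Anillin 4N and control 4N, 4 rose and 1 fell, against 20% and 31.5% of all genes, with a median of 0.07: the pentraxin PTX3 (0.58 ± 0.09), complement C3 (0.57 ± 0.08) and the protease PLAU (0.33 ± 0.07) were the largest rises, and the apoptosis inhibitor BIRC2 fell (-0.40 ± 0.03). Of the same 9 between Anillin 2N and control 2N, C3 (0.80 ± 0.08) and PLAU (0.46 ± 0.07) rose and IER3 fell (-0.42 ± 0.12), a call lost in 6 of 20 other settings, so 2 rose and 1 fell against 11.4% and 17.1% of all genes. C3 was at 0.768 ± 0.058 RPKM in Anillin 4N and 0.351 ± 0.039 in control 4N, and at 1.23 ± 0.031 in Anillin 2N and 0.499 ± 0.128 in control 2N. ICAM1, an adhesion molecule and usual NF-kB target, lay below the filter, at 0.263 ± 0.0375 RPKM in Anillin 4N and 0.0967 ± 0.0253 in control 4N and at 0.443 ± 0.0844 in Anillin 2N and 0.198 ± 0.0430 in control 2N, and rose on reads by 1.45 and 1.17 (adjusted p = 3.49e-05 and 1.76e-05). SOD2, the mitochondrial superoxide dismutase, was at 0.02 and 0.04 against control in 4N and 2N cells and did not pass (adjusted p = 0.619 and 0.43). In control 4N against control 2N 5 of the 9 fell, with PTX3 at -0.76 ± 0.09, and 2 rose, against 13.2% and 23.9% of all genes. In Anillin 4N against Anillin 2N 2 of the 9 fell and none rose, against 0.97% and 2.61%. They were C3 (-0.45 ± 0.08, adjusted p = 0.0129) and SOD2 (-0.15 ± 0.03, adjusted p = 0.0444). Over the fits on RPKM with the filter, 0 to 2 genes of this list were called lower there.

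Of 15 other transcription factors that bind cytokine promoters, 7 rose and 2 fell between Anillin 4N and control 4N, against 20% and 31.5% of all genes, with a median of 0.18. CEBPD, of the C/EBP family, had the largest rise (1.05 ± 0.09), to 2.47 ± 0.037 RPKM in Anillin 4N against 0.937 ± 0.036 in control 4N, followed by the stress factor ATF3 (0.76 ± 0.12) and the AP-1 subunit JUND (0.61 ± 0.09). The AP-1 subunit FOSL1 fell by 1.27 ± 0.14, to 9.51 ± 0.811 RPKM in Anillin 4N against 23.8 ± 2.41 in control 4N. Between Anillin 2N and control 2N 4 rose and 1 fell, against 11.4% and 17.1% of all genes, with a median of 0.11, and with CEBPD at 0.80 ± 0.09, KLF4 at 0.54 ± 0.11 and JUND at 0.42 ± 0.09, and EGR1 fell (-0.44 ± 0.11), a call lost in 2 of 20 other settings. Between control 4N and control 2N 1 of the 15 rose, FOSL1 (1.07 ± 0.14), and 1 fell, CEBPD (-0.45 ± 0.09). Of all genes 23.9% rose and 13.2% fell there.

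Of 10 proteins that bind AU-rich messengers 2 rose and 4 fell between Anillin 4N and control 4N, near the 20% and 31.5% of all genes, with a median of -0.08. They included KHSRP, a decay factor, at -0.97 ± 0.08, the stabilising protein ELAVL1 at -0.65 ± 0.05 and HNRNPD at -0.53 ± 0.05, and rises of TIA1 (0.42 ± 0.10) and the decay factor ZFP36L1 (0.30 ± 0.06). Between Anillin 2N and control 2N none rose and 4 fell, against 11.4% and 17.1% of all genes, with a median of -0.19 and with KHSRP, ELAVL1 and HNRNPD at -0.55 ± 0.08, -0.35 ± 0.05 and -0.35 ± 0.05. Between control 4N and control 2N 4 rose and 3 fell, against 23.9% and 13.2% of all genes. KHSRP, HNRNPD and ELAVL1 rose (0.47 ± 0.08, 0.37 ± 0.05 and 0.34 ± 0.05). ZFP36 (-0.49 ± 0.16, adjusted p = 0.0328), TIA1 (-0.31 ± 0.10, adjusted p = 0.0294) and ZFP36L1 (-0.20 ± 0.06, adjusted p = 0.0330) fell, calls lost in 7, 5 and 6 of 20 other settings. Of 6 genes of interleukin 1 processing and pyroptosis, 4 rose and 2 fell in 4N cells, against 20% and 31.5% of all genes, led by CASP4 (0.47 ± 0.03) and NLRP1 (0.33 ± 0.03), and in 2N cells 2 rose, CASP4 (0.32 ± 0.03) among them, and 1 fell, against 11.4% and 17.1%. The medians of the 6 were 0.21 and 0.09. Of 14 prostaglandin genes besides PTGS2 only 2 passed the filter. PTGES3, a cochaperone that can also make prostaglandin E2, fell in 4N cells (-1.05 ± 0.07) and in 2N cells (-0.47 ± 0.07). That is 1 of 2 lower, against 31.5% and 17.1% of all genes, and none higher, against 20% and 11.4%. PTGES3 rose between control 4N and control 2N (0.69 ± 0.07), 1 of 2 against 23.9% of all genes. It averaged 8.66 RPKM in Anillin 4N, 18.5 in control 4N, 7.97 in Anillin 2N and 11.3 in control 2N. On reads, where 12 of the 14 were tested, 6 rose and 2 fell in 4N cells, against 20.8% and 23.6% of all genes, and 4 rose and 3 fell in 2N cells, against 12.4% and 16.2%. The inducible synthase PTGES averaged 0.0316 to 0.0503 RPKM in the 4 groups.

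Of 13 senescence-associated proteases and inhibitors 8 rose and 2 fell between Anillin 4N and control 4N, against 20% and 31.5% of all genes, with a median of 0.24. Between Anillin 2N and control 2N 5 rose and 2 fell, against 11.4% and 17.1%, with a median of 0.12. The matrix metalloproteases MMP2 (0.61 ± 0.06) and MMP14 (0.47 ± 0.06) were among those that rose in 4N cells. MMP2 and MMP14 also rose in 2N cells (0.47 ± 0.06 and 0.36 ± 0.06), while SERPINB2 fell there (-0.42 ± 0.07). Of the same 13, 3 rose and 5 fell between control 4N and control 2N, against 23.9% and 13.2% of all genes. Their median there was -0.13. Of 13 growth factors and binding proteins 6 rose and 5 fell in 4N cells, against 20% and 31.5% of all genes, with a median of 0.14, and with ANGPTL4 at 0.72 ± 0.08 and STC1 at -0.96 ± 0.08. In 2N cells 4 rose and 5 fell, against 11.4% and 17.1%, with a median of 0.07, and with IGFBP5 at 0.56 ± 0.07 and with falls of STC1 (-0.62 ± 0.08), HBEGF (-0.60 ± 0.12) and INHBA (-0.55 ± 0.08). Between control 4N and control 2N 8 of the 13 fell and none rose, against 13.2% and 23.9%. In Anillin 4N against Anillin 2N 1 of the 13 rose and 2 fell, against 2.61% and 0.97%. PDGFA rose (0.25 ± 0.05), and IGFBP5 (-0.61 ± 0.07) and IGFBP3 (-0.45 ± 0.07) fell. Over the fits on RPKM with the filter, 0 to 1 rose and 1 to 2 fell there.

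The genes whose values followed each member most closely over the 12 libraries were found by the root mean square difference of centred log2(RPKM + 0.5), among the 12892 genes past the filter. CXCL3 was nearest to INHBA, at 0.065, against a spread of CXCL3 itself of 0.316. IL6, CXCL2 and IL1B were all nearest to CCNE2, at 0.104, 0.117 and 0.129, and IL6 and CXCL2 stood among each other's nearest 3 genes at 0.121. PTGS2 was nearest to SYNPO at 0.103, CCL2 to TGFB2 at 0.123 and CSF2 to THBS1 at 0.211. CSF2 thus had the poorest match, and these distances are a description over libraries that share their groups.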

How the data were processed

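Polyadenylated or total RNA (the labels name both) was sequenced in 12 libraries. The authors deposited 1 table of RPKM values for 57773 Ensembl identifiers. Without giving roles, the submitters' processing notes list hg19 as the build and TopHat2, CASAVA 1.8.2 and edgeR as tools. How reads were counted, on which annotation and with what use of strand, is not given in the sources used here. The deposited RPKM values are whole reads over library size and genomic span: for 29239 of 38571 genes above 0 they were whole multiples of 1 read within 0.01 read by spans of GENCODE 29, and for 9332 by a common divisor. Scaling between libraries lay between 0.951 and 1.04. Names were found for 52338 identifiers, and coordinates are those of GENCODE 29 on GRCh38, not of the submitters' build. Promoters are from RefSeq on GRCh38.p14.

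The main test was limma-trend (limma 3.58.1, R 4.3.3) on log2(RPKM + 0.5), 1 mean per group over all 12 libraries, two-sided, with Benjamini-Hochberg adjustment over every gene tested. The alternative was limma-voom on recovered reads. Values are mean ± SD over 3 libraries and log2 change ± SE. Both fits were tested on simulated data, with changes only in genes that average above 1 RPKM. That test therefore does not cover changes at the levels of IL1A, CXCL1, CXCL2 and CSF2. Tables used pandas 2.3.3, numpy 2.4.6 and Biopython 1.88, and figures matplotlib 3.10.9. Pseudocounts, filters, scalings, the groups fitted and single libraries were varied.

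The genes and the 14 lists (12 of pathway genes and 2 of cell markers, with 236 symbols, 232 of them found by name) were chosen with earlier results of these data known. From each list up to 3 rises and 3 falls past the threshold per comparison could be named, with a mean of at least 0.5 RPKM in 1 of the groups compared, and ICAM1, NFKBIA, TNFAIP3, SOD2 and IL1R1 in any case. For likeness the 3 nearest genes with a name were taken. Some genes that these rules select are not reported here.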

Additional observations from a re-analysis of the deposited data

Results flagged for a closer look

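IL1B and PTGS2 had a change between 4N and 2N cells that differed between the cultures. The difference of their 4N minus 2N log2 changes, Anillin less control, was 0.62 for IL1B and 0.59 for PTGS2 (limma-trend, adjusted p = 0.00408 and 0.0107). Both remained called in each of the other settings and in each fit without 1 library, where IL1B ranged from 0.55 to 0.70 and PTGS2 from 0.55 to 0.66. In both genes the control cultures carried the larger change.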

How the results depend on the processing

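No paired analysis was possible because no label ties a 2N library to a 4N library or an Anillin library to a control library. For the 10 genes 745 of 807 alternative values kept their direction and their side of the threshold, 5 lost a call, 30 gained one and 27 changed sign. The lost calls are those of CSF2 between control 4N and control 2N. On log2 RPM, without division by length, 9 genes of the set and 19591 of all genes were tested. Of the 9, 6 were called between Anillin 4N and control 4N and 8 between Anillin 2N and control 2N. Between Anillin 4N and Anillin 2N 4 were called, and 4 in the interaction. Of the 19591, 10312, 5814, 1092 and 3631 were called in the same order, and 8000 between control 4N and control 2N. On recovered reads 8 of the 10 genes were called between Anillin 2N and control 2N and 2 between Anillin 4N and Anillin 2N. Of all 22404 genes tested on reads 6399 and 905 were called there. Between control 4N and control 2N 8134 were called, and 3258 in the interaction. Between Anillin 4N and Anillin 2N 2 of the 8 tested were called with a pseudocount of 0.1 or median-of-ratios scaling and 3 with quantile scaling. Over all genes 359 were called higher and 133 lower of 12892 with that pseudocount. The counts were 352 and 125 of 12861 with median-of-ratios scaling, and 309 and 194 of 12892 with quantile scaling. With only the groups compared, 2347 genes were called between Anillin 2N and control 2N.

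Quantile scaling moved the split of all genes between Anillin 4N and control 4N to 3505 higher and 3182 lower, against 2582 and 4056, and that between control 4N and control 2N to 2096 and 2465, against 3079 and 1703. Changes near 0 turned sign. With quantile scaling IL1B was at 0.0156 between Anillin 4N and control 4N, CAPN2 at 0.0168 there, and CCL2 at 0.0267 between Anillin 2N and control 2N, where CCL2 was at 0.0142 with median-of-ratios scaling and 0.00358 on reads. CSF2 was at 0.158 on reads between Anillin 4N and Anillin 2N. The interaction was at -0.0477 for CXCL8 with a pseudocount of 0.1 and -0.0321 on log2 RPM, and at -0.0770 for ICAM1 without a filter. The causes were not tested.

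Without 1 library, 1 to 3 of the 8 genes tested were called between Anillin 4N and Anillin 2N (3 without the third control 2N library). In the interaction 2 to 4 were called (4 without the second control 2N library). Over all 12643 to 12841 genes tested the counts were 241 to 616 between Anillin 4N and Anillin 2N. They were 3153 to 4749 between control 4N and control 2N and 1093 to 1915 in the interaction. The low counts came without the second or the third library of Anillin 4N or Anillin 2N (241 to 307), and without the first control 4N library (3153 and, in the interaction, 1093) or the third (1251). IL1B ranged from -0.138 to 0.00391 and CCL2 from -0.0521 to 0.127 between Anillin 4N and control 4N, CCL2 from -0.109 to 0.0610 between Anillin 2N and control 2N, and CSF2 from -0.294 to 0.0814 between Anillin 4N and Anillin 2N. The interaction ranged from -0.205 to 0.298 for CXCL8, -0.0515 to 0.143 for CCL2, -0.0377 to 0.00240 for SOD2 and -0.0282 to 0.199 for TNFAIP3. NFKBIA ranged from -0.0513 to 0.142, -0.201 to 0.0274, -0.0472 to 0.206 and -0.160 to 0.0315 in the 4 comparisons of groups, for Anillin 4N against control 4N, Anillin 2N against control 2N, Anillin 4N against Anillin 2N and control 4N against control 2N, and TNFAIP3 from -0.00293 to 0.195 between Anillin 2N and control 2N.

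The fits on reads without 1 library, and all settings for the genes of the lists, were chosen after seeing the data. There CXCL1 was at 0.0505 and 0.0532 between Anillin 2N and control 2N without the second Anillin 2N or the first control 2N library. Its interaction was at 0.188, 0.106, 0.0929 and 0.185 without the first control 4N, the first or the third Anillin 2N or the second control 2N library. CXCL3 lost its call on reads between Anillin 4N and control 4N without the first or second Anillin 4N or the second control 4N library (adjusted p up to 0.0802). Of 161 changes of list genes 105 remained called in every setting. IL1A and CXCL1 are limited by depth, with 4 to 69 reads a library.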
